A study of Rattus norvegicus with 36 samples.

Results

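The 10 genes described here are genes of the circadian clock, its output factor Dbp included: Bmal1 (also written Arntl), Clock, Per1, Per2, Per3, Cry1, Cry2, Dbp, Nr1d1 and Nr1d2. They were chosen by name, as array features (probe sets) assigned to 1 gene symbol only, and a gene with more than 1 such feature was read from its brightest, judged by the average log2 signal across the 36 arrays. All 10 were measured, out of 14217 genes with such a probe set. The arrays carried 36 left soleus muscles, 1 per rat, from adult female Sprague Dawley rats aged 16 weeks at the start and kept under 12 hours of light and 12 hours of dark. Each of 6 groups had 6 rats. Control rats (CTR) had no injury. The other 5 groups had a moderate contusion at thoracic segment 8 of the spinal cord (SCI), a model that spares part of the cord. SCI3d, SCI8d and SCI14d were taken 3, 8 and 14 days after it without training. SCI8d + TM had 3 treadmill sessions from day 7, and SCI14d + TM had 5 days of sessions, and both were collected 8 hours after the last session. Injured rats were kept 1 to a cage, received pain relief after surgery, and had soft dough food within reach, which the study's methods do not describe for CTR. The hour of the day at which any muscle was collected is not given in the sources used here, and its part in the differences below was not tested.

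The clock is a feedback loop that runs in almost every cell, skeletal muscle included, on a cycle of about a day. The proteins BMAL1 and CLOCK pair up and switch on the Period (Per) and Cryptochrome (Cry) genes, whose products then return to the nucleus and block that pair. BMAL1 and CLOCK also switch on Nr1d1 and Nr1d2, which encode the repressors REV-ERB alpha and REV-ERB beta of Bmal1, and Dbp, a transcription factor that passes the rhythm on to other genes. In rodent tissues the messages of Dbp and Bmal1 peak at nearly opposite times of day, and the messages of Nr1d1, Per3 and Nr1d2 peak nearer to that of Dbp. In rodents Per1 and Per2 also respond directly to glucocorticoid hormone, light and feeding.

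The DNA before 3 of the genes is printed here with short motifs known from this loop. Windows of 250 bases upstream of the transcription start, from RefSeq on build GRCr8, existed for 9 of the 10 genes. Each was searched on both strands for the E-box CACGTG and the related CACGTT, which BMAL1 and CLOCK bind, the D-box TTATGNAA, which DBP binds, the ROR element TAGGTCA, where REV-ERB proteins bind, and the cAMP element TGACGTCA. Matches are in capitals. They are shown because Bmal1, Per2 and Nr1d1 each carried a different one, and because Bmal1 and Per2 moved in opposite directions between rats (below).
Bmal1, chr1:176766078-176766327, plus strand, ROR element: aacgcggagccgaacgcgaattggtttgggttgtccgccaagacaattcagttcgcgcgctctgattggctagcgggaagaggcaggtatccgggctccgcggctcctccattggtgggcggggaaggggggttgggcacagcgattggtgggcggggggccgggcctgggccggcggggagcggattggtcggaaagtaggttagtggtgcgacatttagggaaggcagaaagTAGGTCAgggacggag
Per2, chr9:99496994-99497243, minus strand, D-box and then CACGTT: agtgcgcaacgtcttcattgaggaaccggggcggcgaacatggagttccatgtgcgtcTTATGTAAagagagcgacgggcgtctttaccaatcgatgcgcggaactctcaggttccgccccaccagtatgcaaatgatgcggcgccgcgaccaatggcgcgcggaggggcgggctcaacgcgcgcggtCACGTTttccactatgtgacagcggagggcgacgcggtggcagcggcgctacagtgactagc
Nr1d1, chr10:84229455-84229704, minus strand, CACGTG: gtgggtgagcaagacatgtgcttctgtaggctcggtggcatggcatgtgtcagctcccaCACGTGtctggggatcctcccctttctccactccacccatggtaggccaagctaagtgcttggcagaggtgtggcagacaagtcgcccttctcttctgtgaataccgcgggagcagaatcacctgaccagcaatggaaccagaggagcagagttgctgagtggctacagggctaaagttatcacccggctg
Among all 33469 promoter windows of that length, 5.59% held CACGTG, 4.07% CACGTT, 3.28% the D-box, 2.26% the ROR element and 1.59% the cAMP element. Cry2 and a second Nr1d1 start also held CACGTT, while the windows of Clock, Dbp, Per1, Per3 and Nr1d2 held none of the 5 motifs. A match describes these letters only.

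All arrays had similar scaling, with a median signal between 167 and 236 units, and no pair of arrays held identical values. The slow myosin gene Myh7, which marks soleus, was between 37777 and 90831 units over all arrays. None of the 7 listed slow fiber genes passed the test in any comparison of the groups. Against CTR, however, none of the 7 was higher on average in SCI14d, SCI8d + TM or SCI14d + TM, while 2 were in SCI3d and 4 in SCI8d. Their median log2 difference in SCI14d was -0.34, against 0.08 over all probe sets. Of 6 general muscle fiber genes 1 passed as higher in SCI8d (3.01% of all probe sets) and 1 in SCI8d + TM (6.48%). Signals are linear hybridization intensities, so levels are compared between arrays for 1 gene, never between genes. Differences were tested on log2 signals with limma over all 31042 probe sets, and a gene was called at a Benjamini-Hochberg adjusted p under 0.05. Bulk muscle was measured, so that fewer cells of a type and less RNA per cell cannot be told apart.

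On day 3 after the injury Dbp fell and Bmal1 and Clock rose, so 3 of the 10 clock genes were called against CTR (1 lower, 2 higher), where 16.5% of all probe sets were called (9.24% lower, 7.22% higher). On day 8 Per1 and Cry2 fell, 2 of 10 against 6.29% of all probe sets (3.28% lower). After 14 days none of the 10 was called, against 3.19% of all probe sets. At an unadjusted p under 0.05 limma passed 4 of them in SCI3d (27.6% of all probe sets), 7 in SCI8d (20.6%) and 3 in SCI14d (17.7%). The methods' t-test passed 1 in SCI14d (16.9%). By the methods' t-test 5 of the 10 passed at an unadjusted p under 0.05 in SCI3d (25.6% of all probe sets) and 4 in SCI8d (20.2%), and after Benjamini-Hochberg adjustment 0 in SCI3d (12.2%) and 1, Per1, in SCI8d (2.84%). Across all 6 groups, a test for any difference called Per1 (adjusted p = 6.68e-05), Cry2 (adjusted p = 0.00818) and Dbp (adjusted p = 0.0223), 3 of 10 where 21.9% of all probe sets were called.

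**Figure D1:**
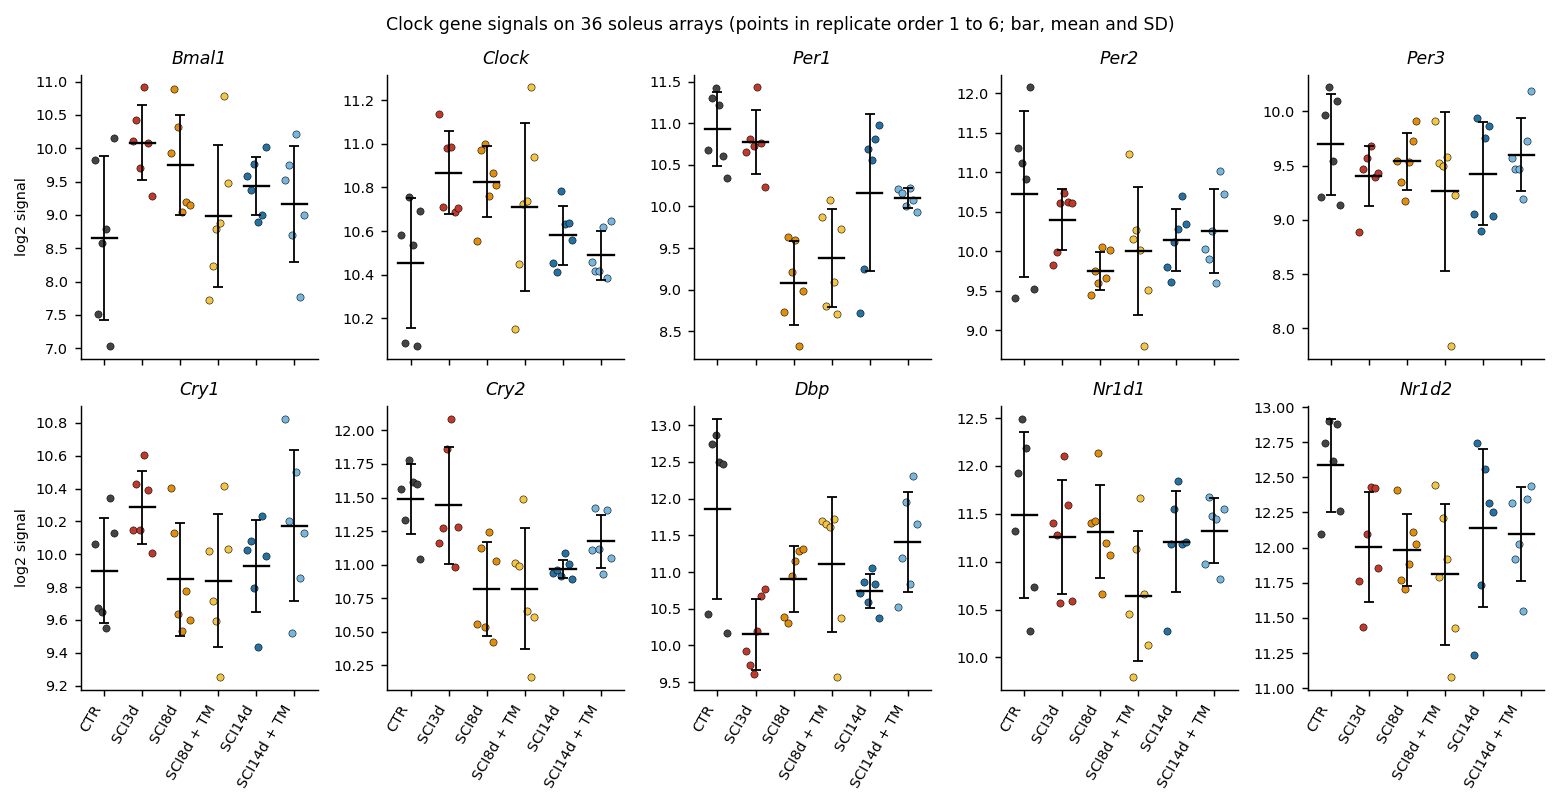
Log2 signal of each clock gene on the 36 arrays, 1 panel per gene, with 6 rats per group (points, replicates 1 to 6 from left to right) and the group mean with its SD (bars). The Dbp and Per2 points of CTR split into a high and a low set, and every SCI8d point of Per1 lies below every CTR point.

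Bmal1 encodes the activator whose partner is CLOCK. In CTR its signal was 906, 182, 383, 443, 131 and 1142 units in replicates 1 to 6. In SCI3d it was between 626 and 1926 (median 1090.2), in SCI8d between 525 and 1888 (median 778), and in SCI14d between 476 and 1034 (median 715). In SCI8d + TM it was between 212 and 1757 (median 457), and in SCI14d + TM between 217 and 1193 (median 624). All 6 SCI3d rats were above 4 of the 6 CTR rats, but CTR replicates 1 and 6 lay inside the SCI3d range, so the groups overlapped. Bmal1 rose 2.70-fold in SCI3d over CTR (log2 difference 1.44, SE 0.46, adjusted p = 0.0287). That call was lost when CTR replicate 2, CTR replicate 5, SCI3d replicate 2 or SCI3d replicate 4 was left out, with differences between 1.11 and 1.74 over the 12 sets. Against CTR the difference was 1.10 in SCI8d (adjusted p = 0.159) and 0.79 in SCI14d (adjusted p = 0.386).

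Clock encodes the partner of BMAL1 in the activator, and in rodents its message swings far less over the day than that of Bmal1. Its signal was between 1078 and 1727 units in CTR (median 1508), between 1648 and 2248 in SCI3d (median 1849) and between 1504 and 2050 in SCI8d (median 1829). SCI3d and CTR overlapped only through CTR replicates 3 and 6. Clock rose 1.33-fold in SCI3d (log2 difference 0.41, SE 0.14, adjusted p = 0.0349), and the call was lost without CTR replicate 2 or 5 or SCI3d replicate 1, 3 or 4. In SCI8d the difference was 0.37 (adjusted p = 0.102), and it passed without SCI8d replicate 1. Of the 3 other Clock probe sets, the dimmest, with a mean log2 signal of 5.61, gave a difference of -0.21 in SCI3d, and the other pair gave differences of the same sign as the main value that were not called. Over 15 other settings of the processing 8 kept the call, with scaling to Gapdh, the groups of the comparison alone, the adjusted t-test and the mean of the Clock probe sets among those that lost it (highest adjusted p = 0.857).

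Per1 encodes a repressor of the loop that also answers quickly to hormones and other signals, and it showed the clearest difference of the 10 genes. Its signal was between 1295 and 2753 units in CTR (median 2015) and between 1203 and 2760.4 in SCI3d (median 1717), so these groups lay over each other. In SCI8d it was 424, 793, 594, 773, 321 and 508 in replicates 1 to 6, all below the lowest CTR rat and the lowest SCI3d rat. SCI8d + TM, with values between 417 and 1084 (median 699), was also wholly below CTR. Per1 was 3.60-fold lower in SCI8d than in CTR (log2 difference -1.85, SE 0.30, adjusted p = 0.000336) and 2.92-fold lower in SCI8d + TM (-1.55, SE 0.30, adjusted p = 0.000932). Both calls held in all 12 sets with 1 rat left out. Among all probe sets, 2.8% did not overlap between SCI8d and CTR, and 7.17% did not between SCI8d + TM and CTR.

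After 14 days the Per1 values of untrained rats lay apart from each other. SCI14d replicates 1 and 2 had 421 and 610 units, inside the SCI8d range, and replicates 3 to 6 had 1651, 1506, 1798 and 2013, inside the CTR range. The SCI14d + TM rats lay between these sets at 1188, 1149, 1026, 1196, 1085 and 980 units, all below the lowest CTR rat, as 1.46% of all probe sets were in one direction or the other. The SD of log2 Per1 was 0.94 in SCI14d and 0.12 in SCI14d + TM. The difference from CTR was -0.76 in SCI14d (adjusted p = 0.16) and -0.82 in SCI14d + TM (adjusted p = 0.241), and neither was called.

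Per2 encodes the closest relative of PER1 in the loop. Its signal was 678, 2528, 2224, 1923, 4316 and 736 units in CTR replicates 1 to 6, a range wider than in any other group. SCI3d lay between 905 and 1708 (median 1564), SCI8d between 696 and 1063 (median 832) and SCI14d between 781 and 1669 (median 1178). CTR replicate 1 was below every SCI8d rat and CTR replicate 6 above only 1 of them, so the groups overlapped although the other 4 CTR rats were higher than every SCI8d rat. The SCI8d difference of -0.97 (adjusted p = 0.084) was not called, and without CTR replicate 1 or CTR replicate 6 it passed, at -1.23 and -1.21.

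Per3, another Period gene that is not needed for the rhythm itself in mice, was between 562 and 1194 units in CTR and between 473 and 985 in the 3 untrained SCI groups, and it was called in no comparison. Cry1 encodes the strongest repressor of the loop, and its signal in SCI3d, between 1030.1 and 1555 units (median 1238), overlapped that of CTR, between 751 and 1299 (median 942). Its difference of 0.39 in SCI3d was not called (adjusted p = 0.196). Cry2, the other Cryptochrome, was between 2106 and 3521 units in CTR (median 3064), between 2027 and 4351 in SCI3d (median 2477) and between 1372 and 2419 in SCI8d (median 1798). Only CTR replicate 6 lay within the SCI8d range. Cry2 fell 1.59-fold in SCI8d against CTR (log2 difference -0.67, SE 0.18, adjusted p = 0.0221), and the call was lost without CTR replicate 3 or SCI8d replicate 3 or 5. The second Cry2 probe set, dimmer at a mean log2 signal of 8.65, gave 0.31 for the same difference, the opposite direction. In SCI14d Cry2 was tightly grouped, between 1904 and 2179 units (SD 0.07 on the log2 scale), with a difference from CTR of -0.52 that was not called (adjusted p = 0.105).

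Dbp, the output factor, had the largest difference among the 10 genes on day 3. In CTR its signal was 1378, 6835, 7479, 5799, 5695 and 1151 units in replicates 1 to 6. SCI3d lay between 785 and 1740.4 (median 1078), SCI8d between 1261 and 2551 (median 2125) and SCI14d between 1332 and 2119 (median 1759). In SCI8d + TM the values were 3324, 3210, 3119, 3384, 760 and 1324, and in SCI14d + TM they lay between 1475 and 5068 (median 2781). CTR replicates 1 and 6 lay among the SCI3d rats, and the other 4 CTR rats were above every untrained SCI rat. Dbp was 3.27-fold lower in SCI3d than in CTR (log2 difference -1.71, SE 0.40, adjusted p = 0.00224), a call that held in all 12 sets with 1 rat left out (-2.05 to -1.51). The differences in SCI8d (-0.96, adjusted p = 0.147) and SCI14d (-1.12, adjusted p = 0.11) were not called. Without CTR replicate 6 both passed, at -1.30 and -1.46.

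Beside Dbp at day 3, genes of tendon and cartilage also fell, all 5 of those listed (Tnmd, Comp, Chad, Fmod and Scx). Their summed signal was between 7062 and 59387 units in CTR and between 2068 and 9735 in SCI3d, and none was at 0. The low Dbp controls had less of it too: relative to the CTR mean, the mean log2 signal of the list was -2.15 in CTR replicate 6 and -0.42 in CTR replicate 1, and that of 6 fibroblast genes was -0.92 and -0.49. Genes of other cells also differed from CTR in SCI3d, SCI8d and SCI8d + TM, where clock genes were called, and in part elsewhere. Of all probe sets 9.24% were lower and 7.22% higher in SCI3d, and 3.28% lower and 3.01% higher in SCI8d. In SCI8d + TM 5.71% were lower and 6.48% higher. Of 5 measured adipocyte genes 3 were lower in SCI3d, 1 in SCI8d and 4 in SCI8d + TM, and their summed signal was between 11362 and 28675 units in CTR, 5590 and 15880 in SCI3d, 5564 and 10613 in SCI8d and 6417 and 10030 in SCI8d + TM. Of 4 measured erythrocyte genes 3 were higher in each of these groups, and the summed signal was between 35742 and 48127 units in CTR, 40579 and 76464 in SCI3d, 42005 and 84225 in SCI8d and 49012 and 68199 in SCI8d + TM. Of 6 fibroblast genes 1 was lower in SCI3d, 1 higher in SCI8d and 3 higher in SCI8d + TM, with a summed signal between 54744 and 183369 units in CTR, 57006 and 117435 in SCI3d, 83688 and 226345 in SCI8d and 142619 and 187156 in SCI8d + TM. None of these genes was at 0. Of 6 macrophage and leukocyte genes 1 was higher in SCI3d and 2 in SCI8d + TM. Of the 5 tendon and cartilage genes 1 was lower in SCI8d (median log2 difference of the list -0.90) and 2 in SCI8d + TM (-1.49). Of 4 measured endothelium genes 1 was lower in SCI8d + TM. Markers were also called against CTR where no clock gene was. In SCI14d, where 3.19% of all probe sets were called, 1 adipocyte gene and 1 tendon and cartilage gene were lower and 1 fibroblast gene was higher. In SCI14d + TM, where 0.358% of all probe sets were called, 1 fibroblast gene was higher. The part of these markers in the differences of Dbp, Bmal1, Clock, Per1, Cry2 and Nr1d2 was not tested.

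Nr1d1 encodes REV-ERB alpha. Its signal spread widely within groups, from 1236 to 5762 units in CTR, 1520.5 to 4399 in SCI3d, 1622 to 4490.0 in SCI8d and 888 to 3241 in SCI8d + TM. It was called in no comparison. The largest of its differences, -0.85 in SCI8d + TM against CTR, had an adjusted p of 0.0823, and it passed without CTR replicate 5 or SCI8d + TM replicate 4. Nr1d2, which encodes REV-ERB beta, was between 4389 and 7648 units in CTR (median 6570), between 2771 and 5521 in SCI3d (median 4046) and between 3343 and 5454 in SCI8d (median 3969). These ranges overlapped through the low CTR replicates 1 and 6. The differences were -0.58 in SCI3d (adjusted p = 0.073) and -0.60 in SCI8d (adjusted p = 0.106), neither called. The first passed without CTR replicate 1 or SCI3d replicate 5.

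**Figure D2:**
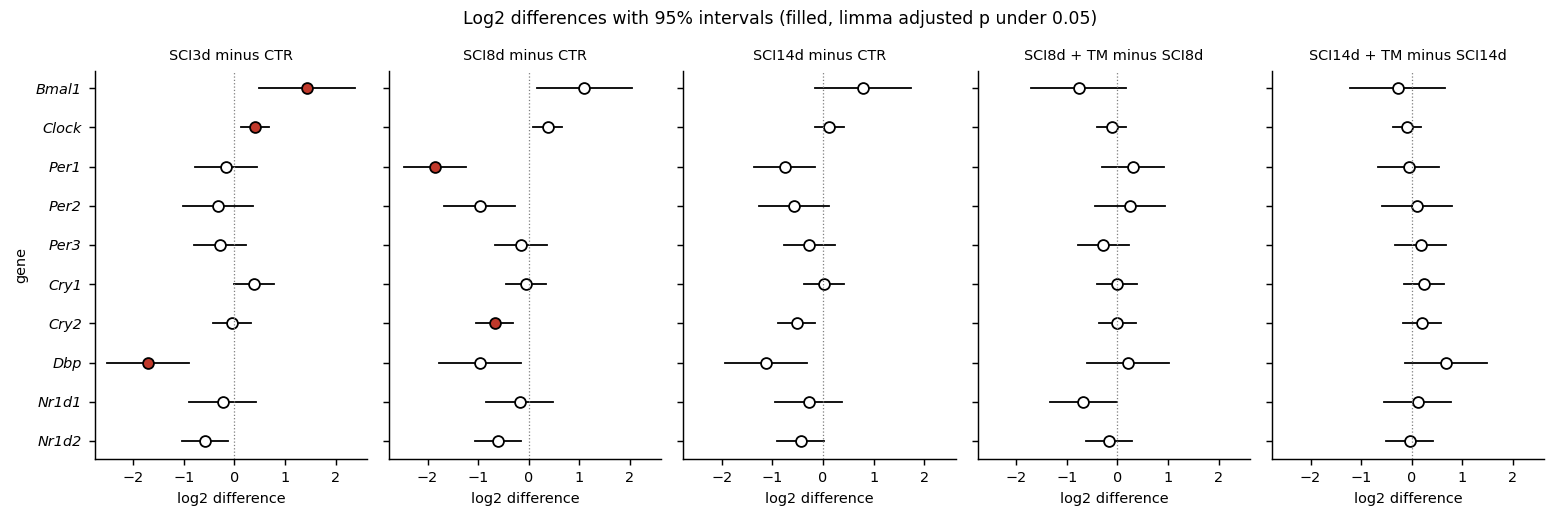
Log2 difference (point) with its 95% interval (line) of each clock gene in the 5 main comparisons, filled where the limma adjusted p was under 0.05. Filled points appear for Bmal1, Clock and Dbp in SCI3d and for Per1 and Cry2 in SCI8d, and in neither of the training comparisons.

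Training was compared with no training on the same day. None of the 10 genes was called in SCI8d + TM against SCI8d, where 0% of all probe sets were called by limma. At an unadjusted p under 0.05 limma passed 1 gene (Nr1d1, log2 difference -0.68), where 4.33% of all probe sets passed, and the methods' t-test passed 0 (4.03%). None was called in SCI14d + TM against SCI14d, against 0.00322% of all probe sets. There limma passed 0 at an unadjusted p under 0.05 (5.96% of all probe sets) and the methods' t-test passed 2 (5.75%). The intervals were wide. For Dbp at day 14 the difference was 0.67, with a 95% interval from -0.13 to 1.48. For Bmal1 at day 8 it was -0.77, from -1.71 to 0.17. The limma test of the difference between the training effects of the 2 days called none of the 10 genes (0 at an unadjusted p under 0.05), where 0% of all probe sets were called.

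Trained rats were also compared with CTR. In SCI8d + TM 3 of the 10 genes were lower, where 12.2% of all probe sets were called and 5.71% were lower: Per1 (above), Cry2 (-0.67, adjusted p = 0.0137) and Nr1d2 (-0.77, adjusted p = 0.021). At an unadjusted p under 0.05 limma passed 5 of the 10 in SCI8d + TM (26.5% of all probe sets) and the methods' t-test 3 (27.3%). The Cry2 and Nr1d2 calls were lost without SCI8d + TM replicate 5, and that of Nr1d2 also without replicate 6. The second Cry2 probe set gave 0.44 here, again the opposite direction, and 3 other settings of 13 lost the Cry2 call. For Nr1d2 3 of 14 settings lost the call. In SCI14d + TM none was called, against 0.358% of all probe sets, while limma passed 2 at an unadjusted p under 0.05 (12.1% of all probe sets) and the methods' t-test 3 (14.6%). Between untrained days, Per1 was 3.23-fold lower in SCI8d than in SCI3d (-1.69, SE 0.30, adjusted p = 0.000631) and Cry2 1.54-fold lower (-0.62, SE 0.18, adjusted p = 0.0308), 2 of 10 where 6.79% of all probe sets were called and 3.14% were lower. The 2 groups did not overlap in Per1, as in 1.82% of all probe sets. The Cry2 call was lost without SCI3d replicate 3 or 4 or SCI8d replicate 1, 3 or 5, and in 6 of 13 other settings, with -0.28 in the second probe set. From day 8 to day 14 none was called (0% of all probe sets), with 1 gene, Per1 (1.09, adjusted p = 0.335), at an unadjusted limma p under 0.05 (8.75% of all probe sets) and 2 by the methods' t-test (6.46%).

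The opposite phases of Dbp and Bmal1 give each rat a position. Taking both genes relative to their CTR means on the log2 scale, the difference Dbp minus Bmal1 was -2.61, 2.02, 1.07, 0.50, 2.23 and -3.20 in CTR replicates 1 to 6. The mean of the controls is 0 by this definition, so they had to fall on both sides of it. Their range was 5.43, wider than in any SCI group. All 6 SCI3d rats were between -3.92 and -1.74, all SCI8d rats between -3.80 and -1.04 and all SCI14d rats between -2.85 and -1.06, so that CTR replicates 1 and 6 lay with the untrained SCI rats and the other 4 controls did not. SCI8d + TM ran from -4.42 in replicate 5 to 0.76 in replicate 1, and SCI14d + TM from -2.60 to 1.33. The plot of Dbp against Bmal1 shows these positions, which are a description with no test, since both genes were chosen for their opposite course.

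**Figure D3:**
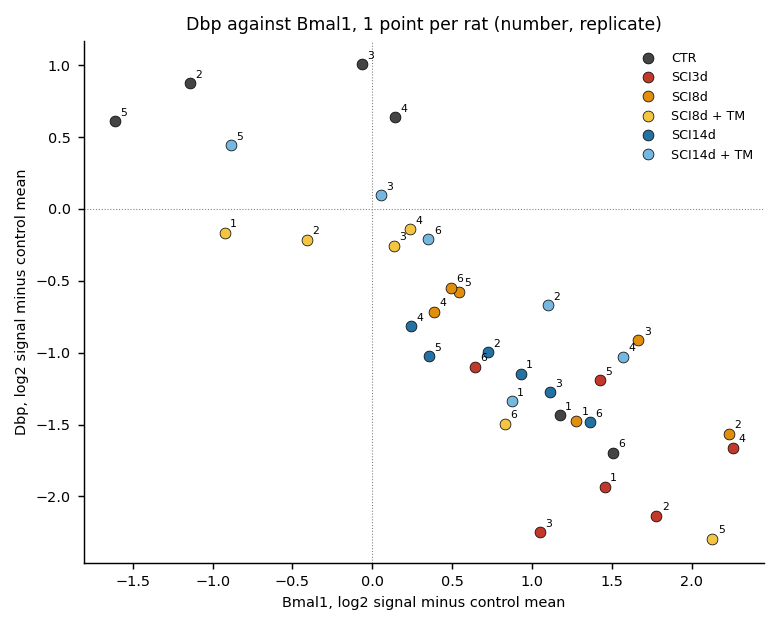
Log2 signal of Dbp (y axis) against that of Bmal1 (x axis), each minus its CTR mean, 1 point per rat coloured by group and numbered by replicate. CTR replicates 1 and 6 and SCI8d + TM replicate 5 sit at the lower right among SCI3d rats. CTR replicates 2 and 5 sit at the upper left, and CTR replicates 3 and 4 sit near the CTR mean of Bmal1 and above that of Dbp.

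Some of the clock genes were correlated from rat to rat within groups. After removal of each group's mean, 22 of the 45 gene pairs had a Pearson correlation that passed a permutation test within groups (100000 resamples, two-sided, Benjamini-Hochberg over the 45 pairs), 13 positive and 9 negative. By Spearman rank correlation 19 pairs passed, and all 19 were among the 22. The count was 11 with the mean of each gene's probe sets, 14 without the SCI8d + TM group and 3 in arrays numbered 1 to 4 alone. It was 0 in arrays numbered 5 and 6 alone. There the 2 rats per group allow so few rearrangements that hardly any pair could pass, so no conclusion is drawn from that 0. An absolute r above 0.5 was reached by 14 of the 45 pairs and by 6.95% of all pairs among the 10375 genes in the brighter 60% of probe sets. With Dbp 5 of the 9 other clock genes reached it and 2.87% of genes did, and with Bmal1 5 of 9 and 2.14%. Dbp and Bmal1 were opposed, with r = -0.81 and rho = -0.79 over 36 rats (each permutation p = 1e-05, the smallest that the resamples can give, adjusted p = 0.000225), and r = -0.78 without the 2 rats farthest from the Bmal1 median. In every pair these 2 rats were picked by the gene that comes first in the opening list, and the other gene played no part in the choice. For Dbp and Bmal1 the sign was negative in 6 of 6 groups, from -0.94 to -0.29. Within arrays numbered 1 to 4 r was -0.61 and within those numbered 5 and 6 it was -0.98, a split by replicate number that the labels do not explain.

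Per2 and Per3 ran with Dbp. Per2 and Dbp had r = 0.79 (rho = 0.73, adjusted permutation p = 0.00027; r = 0.70 without the 2 farthest rats, 0.70 in arrays 1 to 4 and 0.98 in arrays 5 and 6), and Per3 and Dbp had r = 0.68 (rho = 0.60, adjusted permutation p = 0.000394; 0.60, 0.46 and 0.68). Both ran against Bmal1, at -0.81 for Per2 (rho = -0.72; -0.74, -0.64 and -0.93) and -0.70 for Per3 (rho = -0.68; -0.62, -0.47 and -0.69), each with an adjusted permutation p of 0.000225. The tightest positive pair beside Per2 and Dbp was Per3 and Nr1d2 (r = 0.76, rho = 0.75, adjusted permutation p = 0.000225; 0.71, 0.79 and 0.64), positive in 6 of 6 groups. Clock ran with its partner Bmal1 (r = 0.68, rho = 0.58, adjusted permutation p = 0.0013; 0.57, 0.54 and 0.90). Cry1 was opposed to Dbp (r = -0.62, rho = -0.66, adjusted permutation p = 0.0013), with -0.58 without the 2 farthest rats and -0.60 in arrays 1 to 4, but in arrays 5 and 6 alone the value was 0.04. Not every group showed these pooled values. The r of Per2 and Dbp ran from -0.06 in SCI14d to 0.90 in CTR. For Per3 and Dbp it ran from 0.04 in SCI3d to 0.91 in SCI8d + TM. Against Bmal1, Per2 ran from -0.96 in CTR to -0.11 in SCI3d, and Per3 from -0.94 in SCI8d + TM to 0.20 in SCI3d. Clock and Bmal1 ran from -0.02 in SCI14d to 0.98 in SCI8d + TM.

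Nr1d1 stood outside this set. Its correlation was 0.23 with Dbp (rho = 0.22, adjusted permutation p = 0.412), 0.25 with Bmal1 (rho = 0.24, adjusted permutation p = 0.324) and -0.01 with Per2 (rho = 0.05, adjusted permutation p = 0.95), and of its 9 pairs only that with Per1 passed (r = 0.45, rho = 0.43, adjusted permutation p = 0.0235; 0.40 without the 2 farthest rats, 0.49 in arrays 1 to 4 and -0.17 in arrays 5 and 6). Per1 likewise did not pass with Dbp (r = 0.16) or Bmal1 (r = -0.03) and passed with Per2, Cry2 and Nr1d1. Marker levels also followed these genes within groups. The mean of the fibroblast genes had r = 0.64 with Dbp and -0.38 with Bmal1, and that of the tendon and cartilage genes 0.53 and -0.55, over 36 rats and with no test. With both means as covariates 21 pairs passed and r of Dbp and Bmal1 was -0.74. The other marker lists were left in, among them the erythrocyte genes (r = -0.31 with Dbp and 0.34 with Bmal1), and their part was not tested.

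**Figure D4:**
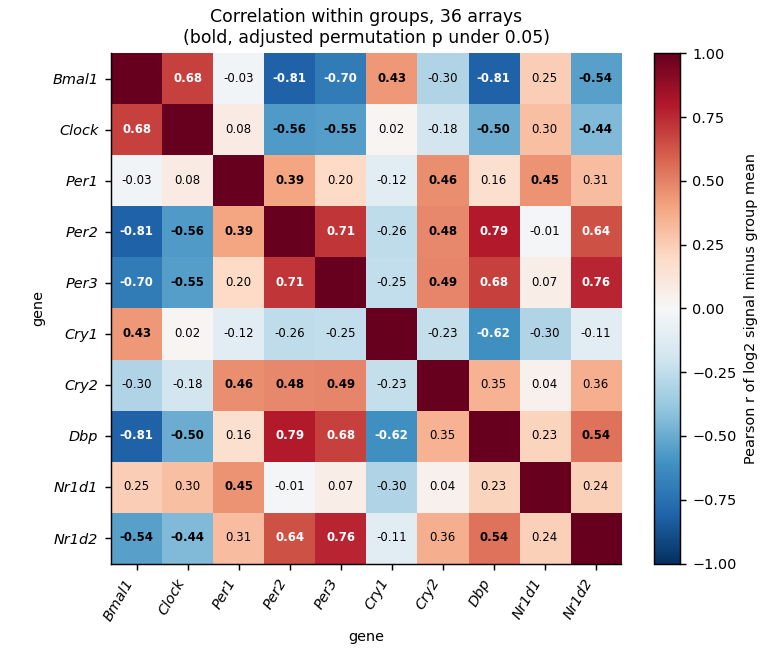
Pearson correlation of log2 signals, each minus its group mean, for every pair of the 10 clock genes over 36 arrays (red positive, blue negative, bold where the adjusted permutation p was under 0.05). Bmal1 and Clock are negative with Per2, Per3, Dbp and Nr1d2, which are positive with each other, and the row of Nr1d1 is pale.

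The spread between rats of a group was large for part of the clock. The residual SD of log2 signal, over all 6 groups, was 0.86 for Bmal1, 0.74 for Dbp, 0.63 for Per2, 0.61 for Nr1d1 and 0.56 for Per1. Among the 10375 genes left once probe sets in the dimmest 40% were set aside, these values lay at percentiles 96.8, 94.2, 90.3, 88.8 and 85.4, and among all 14217 genes, dim ones included, at 78.2, 73.7, 69.1, 67.5 and 64.3. Dbp had 2.87 times and Bmal1 2.77 times the SD of a typical gene at the same signal. Clock lay at the other end, with 0.23 (percentile 21.2 of the brighter genes), and Cry1 (0.35) and Cry2 (0.32) were near the middle. By group, Dbp had an SD of 1.22 in CTR, 0.48 in SCI3d, 0.45 in SCI8d, 0.24 in SCI14d, 0.91 in SCI8d + TM and 0.68 in SCI14d + TM, and Bmal1 1.23, 0.56, 0.75, 0.43, 1.06 and 0.87 in the same order. CTR and the trained groups were thus the most spread for both, as a description with no test. Counted over all 10 clock genes and against the median of all 14217 genes, 10 had an SD above the median gene in SCI8d + TM, 7 in CTR, 6 in SCI14d + TM, 5 in SCI14d and 4 each in SCI3d and SCI8d. In SCI8d + TM 1 rat, replicate 5, was the lowest for Per1, Per2, Per3, Cry2, Dbp and Nr1d2. The same rat was the highest for Bmal1, Clock and Cry1, and its part in the spread of that group was not tested.

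**Figure D5:**
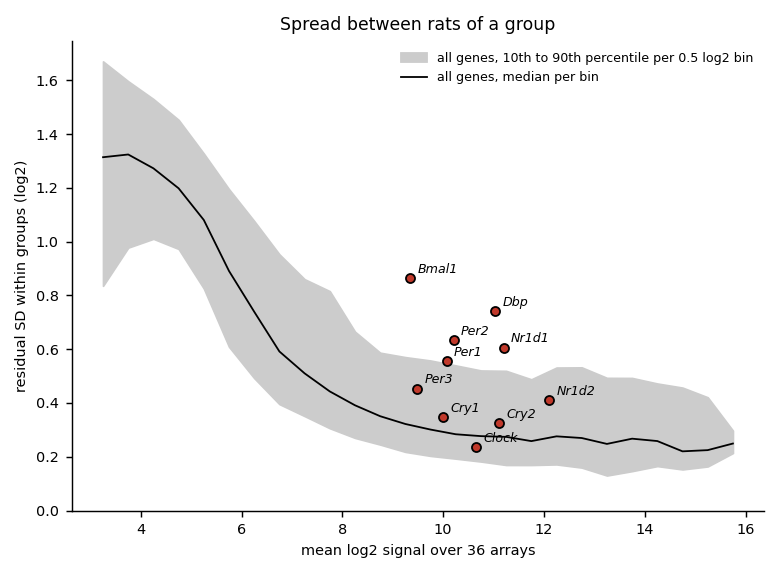
Residual SD within groups (y axis, log2) against mean log2 signal (x axis) for the 10 clock genes (red points), with the median (line) and the 10th to 90th percentile (grey band) of all genes in bins of 0.5 log2 units. Bmal1, Dbp, Per2, Nr1d1 and Per1 lie at or above the upper edge of the band, and Clock lies below the median line.

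Other genes of the pathway were taken from 3 lists, chosen with earlier results of these data known. Of 16 other clock genes 12 were measured. In SCI3d 2 were higher (7.22% of all probe sets) and 1 lower (9.24%), in SCI8d 1 was higher (3.01%) and 1 lower (3.28%), and in SCI14d 1 was lower (1.67%). The one that fell at each day was Hlf, a relative of Dbp that binds the same sequence. Its signal was between 658 and 1526 units in CTR and between 234 and 633 in SCI3d, without overlap (as for 7.73% of all probe sets), a 2.90-fold difference (-1.54, adjusted p = 2.95e-05). It was also lower in SCI8d (-0.86, adjusted p = 0.0302), SCI14d (-0.91, adjusted p = 0.0338) and SCI8d + TM (-0.92, adjusted p = 0.0118). Csnk1d, a kinase that marks Period proteins for breakdown, rose in SCI3d (0.50, adjusted p = 0.000621) and SCI8d (0.40, adjusted p = 0.0164), and Btrc, which sends Period proteins to the proteasome, rose in SCI3d (0.58, adjusted p = 0.0208). Npas2, which can stand in for CLOCK, had a difference of -0.94 in SCI3d (adjusted p = 0.058), the opposite sign to Bmal1.

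Of 10 genes known as rhythmic outputs 9 were measured. Wee1, a cell cycle kinase under direct clock control in mouse liver, fell in SCI3d (-0.75, adjusted p = 0.0119) and SCI8d (-0.88, adjusted p = 0.0104), Leo1, part of a transcription elongation complex, fell in SCI3d (-0.65, adjusted p = 0.00911), and in SCI8d + TM, where 6.48% of all probe sets were higher, Nampt, an enzyme of NAD synthesis, rose (0.71, adjusted p = 0.0209) while Tsc22d3, a glucocorticoid-induced leucine zipper, fell (-0.69, adjusted p = 0.0362). Of 10 glucocorticoid targets, listed because Per1 is one as well, 9 were measured. Ddit4, an inhibitor of mTOR, fell in SCI8d (-0.87, adjusted p = 0.0113), SCI14d (-1.13, adjusted p = 0.00254) and SCI8d + TM (-0.65, adjusted p = 0.0395). Klf9, a transcription factor, fell in SCI8d + TM (-0.91, adjusted p = 0.00644). Glul, glutamine synthetase, went the other way, up in SCI3d (1.08, adjusted p = 3.14e-05), SCI8d (0.92, adjusted p = 0.00145) and SCI8d + TM (0.80, adjusted p = 0.00238). The median difference of the glucocorticoid list from CTR was -0.19 in SCI3d (-0.04 over all probe sets), -0.58 in SCI8d (0.04), 0.33 in SCI14d (0.08), -0.28 in SCI8d + TM (0.08) and -0.20 in SCI14d + TM (0.04), so the sign was opposite on day 14 without training. Of the 9 genes 1 was higher and 1 lower in SCI8d.

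The genes whose signal followed Dbp most closely within groups, among 10374 other genes, were Per2 (r = 0.79), Wee1 (0.77), Col1a1 (0.73), Rom1 (0.73) and Spats2l (0.71), and those most opposed were Bmal1 (-0.81), Bccip (-0.67), Npas2 (-0.66), Ngdn (-0.65) and Grwd1 (-0.65), all over 36 rats. For Bmal1 the closest were Zfp143 (0.80), Npas2 (0.74), Txnip (0.68), Clock (0.68) and Sqstm1 (0.67), and the most opposed were Dbp (-0.81), Per2 (-0.81), Wee1 (-0.76), Gpsm2 (-0.75) and Per3 (-0.70). Of each set of 10, clock genes from the 10 described here held 2 places for Dbp and 4 for Bmal1. Npas2 thus ran with Bmal1 between rats of a group, while their mean differences in SCI3d had opposite signs. These are descriptions without a test, and arrays share group sizes and scaling.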

How the data were processed

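Soleus RNA was hybridized to Affymetrix rat arrays of 31099 probe sets. The deposited values are linear signal intensities that the authors made with MAS5, scaled per array (the mean after trimming 2% at each end was 800 on every array). The methods kept probe sets with at least 4 present calls. Genes were named from the platform annotation: 20826 probe sets had 1 gene symbol, 436 several and 9780 none. After 57 control probe sets were left out, log2 intensities without offset entered a limma fit (version 3.58.1, R 4.3.3, 6 groups, intensity trend, no replicate block), with Benjamini-Hochberg adjustment over 31042 probe sets. Intervals are 95%. The number of arrays limits the precision and each array is 1 rat.

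Correlations used values minus the group mean, with 100000 permutations within groups (NumPy 2.4.6, SciPy 1.17.1). Scripts were tested on simulated data. The members, the 3 lists and the markers were chosen with earlier results of these data known. Named were all 10 members, listed genes that were called, Npas2 (named after its values were seen), and the 5 highest and 5 lowest correlations with Dbp and Bmal1. Alternatives were other scalings, offset, filter, weights, arrays numbered 5 and 6 as a term (a split from an earlier analysis, since the labels give no batch), the methods' t-test, other probe sets and each rat left out. Same-numbered arrays of different groups correlated at 0.012 on average (8 of 90 pairs over 0.1, highest 0.31), and arrays with different numbers at -0.0023. Numbers were not treated as pairing rats, though such averages cannot exclude a weak link by number.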

Additional observations from a re-analysis of the deposited data

Results flagged for a closer look

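Of 60 sets of 6 values (10 genes in 6 groups), 2 held a value set apart from the others by more than the usual limit, where chance flags about 1 in 20. Both were low values of Per3. In SCI3d replicate 1 its log2 signal was 8.88, against 9.40 to 9.68 in the other 5 rats (gap over range 0.642). In SCI8d + TM replicate 5 it was 7.84, against 9.23 to 9.91 (gap over range 0.670); the same rat had the highest Bmal1 and the lowest Dbp signal of its group.

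The effect of injury against CTR differed between day 3 and day 8 for Per1 and Cry2, by the limma test of SCI8d minus SCI3d. The change was -1.69 for Per1 (adjusted p = 0.000631) and -0.62 for Cry2 (adjusted p = 0.0308). The Cry2 call was lost in 5 of 12 sets with 1 rat left out and in 6 of 13 other settings (highest adjusted p = 0.822). That of Per1, which had no second probe set to try, held in every set and setting.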

How the results depend on the processing

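The Per1 calls (SCI8d and SCI8d + TM against CTR, SCI8d against SCI3d) and their direction held under every alternative. Per1, Bmal1, Cry1, Dbp and Nr1d1 had no second probe set, so the alternatives of other or averaged probe sets could not test them. With 1 rat left out the number of clock genes called ranged from 1 to 4 in SCI3d, SCI8d and SCI8d + TM against CTR, from 0 to 1 in SCI14d, from 1 to 2 in SCI8d against SCI3d and from 2 to 5 for any difference. Alternatives for the trained groups against CTR and for successive days, and the correlation without each group or with marker covariates, were chosen after seeing the data. In SCI14d 1 gene was called with median centring, with the groups of the comparison alone, with the methods' t-test before adjustment (16.9% of all probe sets), with probe sets averaged per gene and with the other Per2 probe set. In SCI8d + TM against CTR 1 was called with Gapdh scaling and with the methods' t-test after adjustment. In SCI8d against SCI3d 1 was called with Gapdh scaling, array weights, the groups alone, the mean of probe sets, the other Cry2 probe set or the adjusted t-test, and 5 with the unadjusted t-test (15.9% of all probe sets). The unadjusted t-test called 5 in SCI3d (25.6% of all probe sets), 4 in SCI8d (20.2%), 2 in SCI14d + TM against SCI14d (5.75%), 3 in SCI14d + TM against CTR (14.6%) and 2 in SCI14d against SCI8d (6.46%), and after adjustment it called 0 in SCI3d (12.2%) and 1 in SCI8d (2.84%). The other Cry2 probe set left 1 call in SCI8d, and the groups alone gave 1 in SCI14d + TM against CTR. The cause was not tested. With the replicate block 3 genes were called in SCI3d and 2 in SCI8d, and it changed no call; 10 of 36 arrays correlated best with their own number. Gapdh scaling moved the median of all probe sets from 0.08 to 0.32 in SCI14d against CTR.

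Directions reversed for Clock in SCI3d (-0.21, the dimmest Clock probe set) and for Cry2 in SCI8d (0.31) and SCI8d + TM (0.44) against CTR (the other Cry2 probe set). Of the correlations, 11 pairs passed with the mean of probe sets, 14 without the SCI8d + TM group and 3 in arrays 1 to 4. In arrays 5 and 6, which hold 2 rats per group, 0 passed. That 0 was close to fixed by the few rearrangements possible within groups. Reversed were Clock with Per2 (0.00446) and Per3 with Cry2 (-0.00245) under the mean of probe sets, and Per1 with Nr1d1 (-0.17) and Cry1 with Dbp (0.044) in arrays 5 and 6.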
